A study of Mus musculus with 12 samples.

Results

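Cd14, Cd68, Itgam, Fpr1, Siglecf and Ms4a1 are marker genes of myeloid cells and B cells, and they are 6 of the 748 endogenous genes on the panel with which RNA of tumor-infiltrating T cells was counted. They were chosen by name as genes of cells other than T cells, and the choice was made with values of these counts in view: Cd14 had passed the threshold between ANT008+aPD-1 and Scram+IgG mice under other scalings of the lanes. Levels in that comparison are therefore given as a description, without a test.

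The T cells came from tumors of KPC-Luc cells, a luciferase-labeled mouse line of pancreatic ductal adenocarcinoma, grown under the skin of female C57BL/6 mice whose age the labels do not give. Each mouse received a peptide and an antibody: scrambled peptide with isotype IgG (Scram+IgG), the VIP receptor antagonist ANT008 with IgG (ANT008+IgG), scrambled peptide with anti-PD-1 (Scram+aPD-1), or ANT008 with anti-PD-1 (ANT008+aPD-1). The dose was 10 µg of peptide subcutaneously each day and 200 µg of antibody intraperitoneally every 3 days, over 10 days that began 6 to 7 days after tumor implantation. Each of the 4 groups had 3 mice. T cells were captured with beads against CD90.2 to a labeled purity of 80 to 85%, and the RNA of each mouse was hybridized in 1 lane of an nCounter cartridge, which counts barcoded probes without amplification.

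Cells of the monocyte and macrophage lineage, neutrophils and eosinophils enter pancreatic tumors along with lymphocytes, and macrophages are usually abundant there. CD14 is a co-receptor for lipopolysaccharide on monocytes and macrophages, CD68 is a lysosomal membrane glycoprotein of macrophages, and Itgam encodes CD11b, an integrin chain of monocytes, macrophages, granulocytes and some NK cells. Fpr1 encodes the formyl peptide receptor of neutrophils and other phagocytes, Siglecf a sialic acid-binding lectin of mouse eosinophils and alveolar macrophages, and Ms4a1 the B cell antigen CD20.

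The lanes differed in depth and in the share of counts from T cell genes before any marker was considered. The endogenous total was 1388586, 256703 and 1486646 counts in Scram+IgG mice 1 to 3, and 1357305, 202511 and 100293 in ANT008+IgG mice 1 to 3. It was 1480466, 664792 and 93480 in Scram+aPD-1 mice 1 to 3, and 5776, 268678 and 24813 in ANT008+aPD-1 mice 1 to 3. ANT008+aPD-1 mice 1 and 3 were thus the shallowest lanes of the 12. The deposited table carries a mark, without a reason, on Scram+IgG mouse 1 and ANT008+IgG mouse 1, and leaving both out gave 0 markers called in each tested comparison, as with both kept. The T cell label was checked against its markers. All 16 genes of the T cell list on the panel were above background in 9 or more lanes, where a lane's background is 2 SD above the mean count of 8 negative control probes. The CD3 complex genes Cd3d, Cd3e, Cd3g and Cd247 took 1.21%, 0.166% and 0.154% of the endogenous counts in Scram+IgG mice 1 to 3 (exact 95% binomial intervals 1.19 to 1.23%, 0.150 to 0.182% and 0.148 to 0.161%, which cover counting error only). With ANT008+aPD-1 these shares were 1.11%, 0.898% and 0.818% (0.854 to 1.41%, 0.863 to 0.934% and 0.710 to 0.938%). Scram+IgG mice 2 and 3 therefore had the lowest CD3 shares of the 12 lanes, and all 3 ANT008+aPD-1 lanes lay above them. In RNA of a mixed cell fraction, fewer cells of a type and less RNA per cell cannot be told apart.

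Cd14, Cd68 and Itgam were counted well above background in most lanes, whereas Fpr1, Siglecf and Ms4a1 were at or near it. Cd14 and Cd68 exceeded background in 12 of 12 lanes and Itgam in 11, while Fpr1 did so in 6 lanes, Siglecf in 4 and Ms4a1 in 3. All 6 genes passed the filter for testing, which asks for 3 lanes above background and left 640 of the 748. All 6 were above background in Scram+aPD-1 mice 1 and 2, and in ANT008+aPD-1 mouse 1 this held for Cd14 and Cd68 alone.

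**Figure D1:**
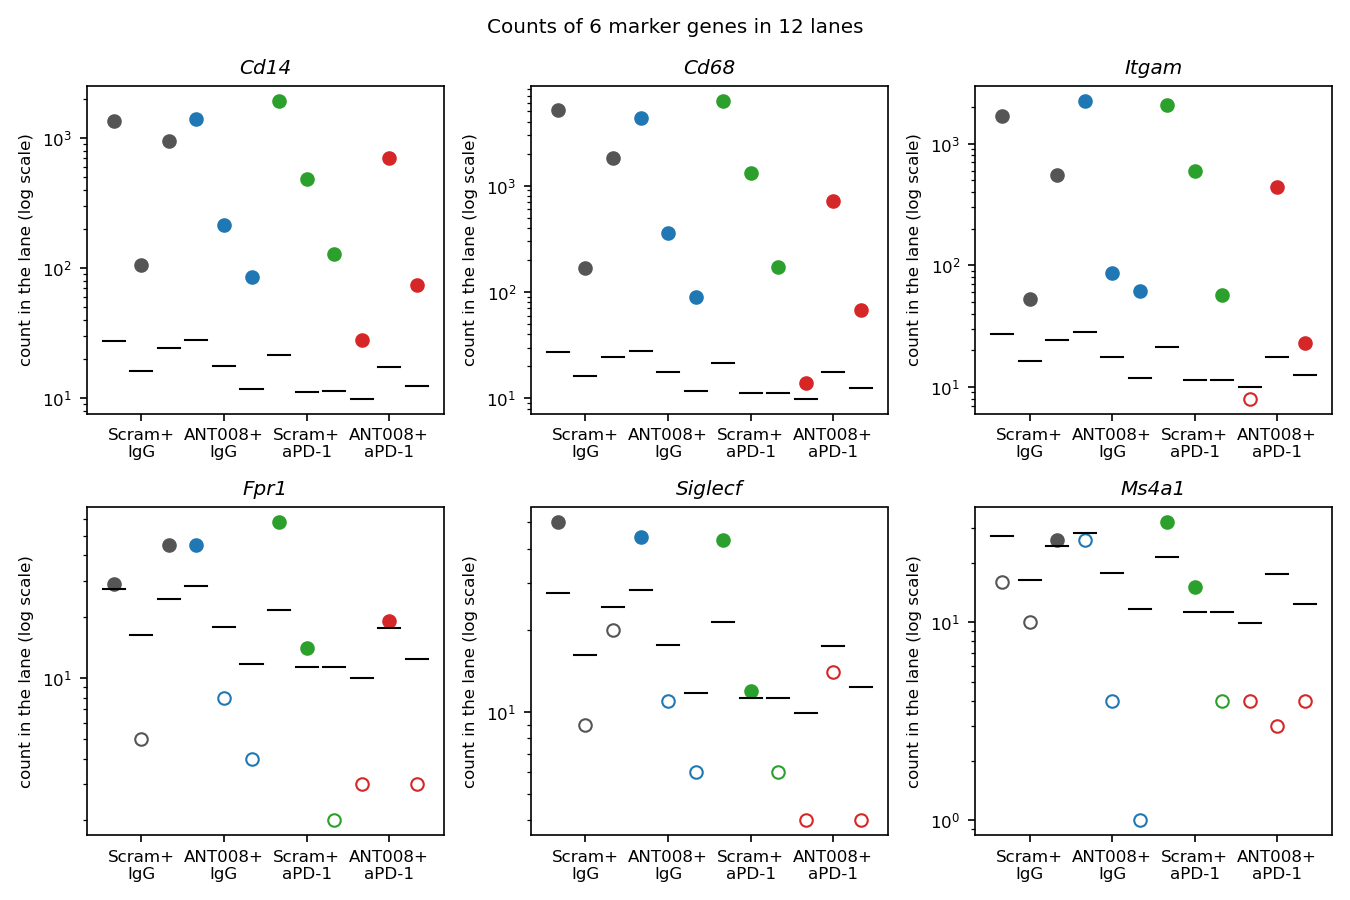
Counts of the 6 marker genes (log scale) in the 12 lanes, with mice 1 to 3 of each group from left to right; filled points are above the background of their lane, open points are not, and black bars mark that background. Cd14 and Cd68 are above the bar in all 12 lanes, and Siglecf and Ms4a1 are below it in all 3 ANT008+aPD-1 lanes.

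Of the monocyte and macrophage genes, Cd68 was counted 5106, 169 and 1830 times in Scram+IgG mice 1 to 3, 4275, 357 and 90 times with ANT008+IgG, 6249, 1318 and 172 times with Scram+aPD-1, and 14, 712 and 67 times with ANT008+aPD-1. The counts broadly followed the depth of the lanes, and 14 counts in ANT008+aPD-1 mouse 1 stood against a background of 9.94. To compare mice, counts were divided by a lane size, the geometric mean of the 3 of 20 housekeeping genes that were above background in all 12 lanes (Dnajc14, Oaz1 and Ubb). The scaled Cd68 count was 426 ± 356 (SD, n = 3 mice) with Scram+IgG, 491 ± 272 with ANT008+IgG, 739 ± 357 in Scram+aPD-1 mice and 624 ± 160.2 with ANT008+aPD-1. No neighbors in this order differed by more than their spread, and the mice of the 4 groups overlapped.

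Cd14 was counted 1357, 105 and 951 times in Scram+IgG mice 1 to 3 and 1402, 215 and 85 times with ANT008+IgG. It was counted 1934, 484 and 128 times with Scram+aPD-1 and 28, 698 and 74 times with ANT008+aPD-1. Unlike Cd68, its scaled count was highest in the ANT008+aPD-1 mice, at 1009, 551 and 890.4, against 221, 99.98 and 149 with Scram+IgG. In the ANT008+IgG mice the values were 223, 370.0 and 169.7, and under Scram+aPD-1 they were 344, 147 and 525, so that each ANT008+aPD-1 mouse lay above the other 9 mice. The same held for 7 of the 640 tested genes (1.09%), Fpr1 among them. The group values were 156 ± 60.7 (SD, n = 3 mice) for Scram+IgG, 254 ± 104 for ANT008+IgG, 338 ± 189 for Scram+aPD-1 and 817 ± 238 for ANT008+aPD-1. The spreads of the first 3 groups overlapped. The scaled background was itself 358, 13.8 and 149 in the ANT008+aPD-1 lanes, against 4.45, 15.5 and 3.81 in the Scram+IgG lanes.

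Itgam was counted 1698, 53 and 555 times in Scram+IgG mice 1 to 3, 2241, 86 and 61 times with ANT008+IgG, 2085, 589 and 57 times with Scram+aPD-1, and 8, 438 and 23 times with ANT008+aPD-1. The 8 counts in ANT008+aPD-1 mouse 1 were below the background of 9.94. Its scaled count was 138 ± 121 (SD, n = 3 mice) with Scram+IgG, 209 ± 128 with ANT008+IgG, 261 ± 99.1 in Scram+aPD-1 mice and 304 ± 36.9 with ANT008+aPD-1. These steps were smaller than the spread within each group but ANT008+aPD-1.

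The receptor of neutrophils was barely detected. Fpr1 was counted 29, 5 and 45 times in Scram+IgG mice 1 to 3, 45, 8 and 4 times with ANT008+IgG, 58, 14 and 2 times with Scram+aPD-1, and 3, 19 and 3 times with ANT008+aPD-1. The lanes above background were Scram+IgG mice 1 and 3, ANT008+IgG mouse 1, Scram+aPD-1 mice 1 and 2 and ANT008+aPD-1 mouse 2. Siglecf, the eosinophil lectin, was counted 50, 9 and 20 times in Scram+IgG mice 1 to 3, 44, 11 and 6 times with ANT008+IgG, 43, 12 and 6 times with Scram+aPD-1, and 4, 14 and 4 times with ANT008+aPD-1. It exceeded background in mouse 1 of the Scram+IgG and ANT008+IgG groups and in Scram+aPD-1 mice 1 and 2, and in no ANT008+aPD-1 lane. In those lanes Siglecf was not detectable at this depth.

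The B cell gene Ms4a1 was above background in the fewest lanes. It was counted 16, 10 and 26 times in Scram+IgG mice 1 to 3, 26, 4 and 1 times with ANT008+IgG, 32, 15 and 4 times with Scram+aPD-1, and 4, 3 and 4 times with ANT008+aPD-1. Scram+IgG mouse 3 and Scram+aPD-1 mice 1 and 2 were above background, the first with 26 counts against 24.3. No ANT008+IgG or ANT008+aPD-1 lane was.

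Whether either agent alone moved the markers was tested in edgeR by quasi-likelihood, on a fit that held the 12 lanes together, and p values were adjusted by Benjamini-Hochberg over the 640 tested genes. At an FDR below 0.1, 0 of the 6 genes were called between ANT008+IgG and Scram+IgG, beside 0% of all genes tested, and 0 had an unadjusted p below 0.05 (0.469% of all genes). The log2 fold change was 0.70 for Cd14 (standard error 0.50), 0.21 for Cd68 (standard error 0.64) and 0.60 for Itgam (standard error 0.59), each with an FDR of 0.999 in edgeR. DESeq2, limma on log2 values and limma's voom with sample weights also called 0 of the 6, beside 0%, 0% and 6.88% of all genes. The direction of Cd68 was not stable, since its log2 fold change was -0.18 without Scram+IgG mouse 2, -0.01 without Scram+IgG mouse 3 and -0.10 without ANT008+IgG mouse 1, and that of Itgam was -0.04 without ANT008+IgG mouse 1.

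With Scram+aPD-1 the 3 detected monocyte and macrophage genes had fitted log2 fold changes above 0 against Scram+IgG, as did 401 of the 640 tested genes. Of the 6 genes, 0 were called by edgeR, beside 0% of all genes, and 1 gene, Cd14, had an unadjusted p below 0.05 (1.09% of all genes). The log2 fold change was 1.10 for Cd14 (standard error 0.50), 0.79 for Cd68 (standard error 0.64) and 0.92 for Itgam (standard error 0.59), each with an FDR of 0.988 in edgeR. DESeq2 and limma on log2 values called 0 of the 6, beside 0% of all genes in each. Voom with sample weights called Cd14, Cd68 and Itgam, with log2 fold changes of 1.15, 1.70 and 1.84 and FDRs of 0.0619, 0.0676 and 0.0393, while the FDR ran up to 1.00 over the alternatives for each of the 3 genes. That method called 143 of the 640 genes (22.3%) in this comparison. With 1 mouse left out, the edgeR log2 fold change ran from 0.65 to 1.46 for Cd14, from 0.37 to 1.72 for Cd68 and from 0.53 to 1.92 for Itgam. Positive control scaling gave -0.24, -0.24 and -0.15, where the median of all genes was -0.91.

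Adding anti-PD-1 to ANT008 gave a log2 fold change of 1.66 for Cd14 (standard error 0.52, FDR = 0.578 from edgeR), 0.35 for Cd68 (FDR = 0.879) and 0.55 for Itgam (FDR = 0.805). Of the 6 genes 0 were called by edgeR, beside 0% of all genes tested, and 3 had an unadjusted p below 0.05 (Cd14, Fpr1 and Ms4a1), as did 50 of the 640 genes (7.81%). Ms4a1 was above background in 0 of the 6 lanes compared, so that its p compares background divided by lane sizes. Limma on log2 values called 0 of the 6, beside 0% of all genes. DESeq2 called Cd14 (log2 fold change 1.57, FDR = 0.0757), and so did voom with sample weights (2.10, FDR = 0.0817), where each tool called 5 of the 640 genes (0.781%), while the FDR ran from 0.0757 to 0.869 over all alternatives. Each ANT008+aPD-1 mouse had a higher scaled count than each ANT008+IgG mouse for Cd14 and for Fpr1, as held for 6.25% of all tested genes. For Fpr1 this rests on 3 and 3 counts, below background, in mice 1 and 3. With positive control probes as the lane size the value of Cd14 was -2.48, where the median of all genes was -3.97. Scaling by CD3 genes gave 0.59 for Cd14, -0.60 for Cd68 and -0.23 for Itgam, where the median of all genes was -1.07. Without the 2 shallowest lanes, which leaves a lone ANT008+aPD-1 lane, the value of Cd14 was 1.12. Without ANT008+IgG mouse 3 Cd68 stood at -0.04.

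Adding ANT008 to anti-PD-1 gave a log2 fold change of 1.26 for Cd14 (standard error 0.51, FDR = 0.751 from edgeR), -0.24 for Cd68 (FDR = 0.946) and 0.23 for Itgam (FDR = 0.946). Of the 6 genes 0 were called by edgeR, DESeq2, limma on log2 values or voom, beside 0.781% of all genes in DESeq2 and 0% in the other 3, and 2 (Cd14 and Fpr1) had an unadjusted p below 0.05 in edgeR, as did 40 of the 640 genes (6.25%). Without Scram+aPD-1 mouse 1 the log2 fold change of Cd68 was 0.19, and with the background subtracted that of Itgam was -0.10. That of Cd14 was 0.31 with CD3 scaling and -2.59 with positive control scaling, where the medians of all genes were -0.998 and -3.69. Without the 2 shallowest lanes, which leaves a lone ANT008+aPD-1 lane, Cd14 stood at 0.71. Without ANT008+aPD-1 mouse 2, which leaves the shallowest lanes, edgeR called Ms4a1 against ANT008+IgG and both Fpr1 and Ms4a1 against Scram+aPD-1, beside 26 (4.06%) and 35 (5.47%) of the 640 genes. The counts in those lanes were 4 and 4 for Ms4a1 and 3 and 3 for Fpr1, all below background. The interaction of the agents was called for 0 of the 6 genes by each of the 4 tools, beside 0% of all genes in each. Of the 6 genes, 0 had an unadjusted p below 0.05 for it in edgeR (1.41% of all genes). The tests in the ANT008+aPD-1 lanes, and those against Scram+IgG, share lanes with the comparison known at selection, so that their p values and calls for Cd14 are not independent of how the genes were chosen.

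Between ANT008+aPD-1 and Scram+IgG mice, the comparison known when the genes were chosen, the fitted log2 fold change was above 0 for all 6 genes. The same held for 363 of the 640 tested genes. The log2 fold change was 2.36 for Cd14, 1.15 for Itgam and 0.56 for Cd68, beside a median of 0.12 over all tested genes. The mice of the 2 groups did not overlap in scaled count for 4 of the 6 genes (Cd14, Itgam, Fpr1 and Siglecf), where 7.81% of all tested genes were higher without overlap. For Itgam the gap was from 276.1 in Scram+IgG mouse 1 to 276.8 in ANT008+aPD-1 mouse 3, and the count in ANT008+aPD-1 mouse 1 was below background. For Fpr1, Siglecf and Ms4a1 the fitted values of 2.61, 2.74 and 2.90 rest on counts at or below background in ANT008+aPD-1 mice 1 and 3, which the small lane sizes of 0.0277 and 0.0831 multiply. Without those 2 lanes the log2 fold change was 1.81 for Cd14, 1.41 for Fpr1, 0.79 for Siglecf and -1.0045 for Ms4a1, with the lone ANT008+aPD-1 lane assumed to vary like the other groups. Scaling by the positive control probes gave values below 0 for all 6 genes, together with a median of -4.58 over all tested genes. Scaling by the CD3 complex genes gave 0.77 for Cd14, 0.02 for Itgam and -0.65 for Cd68, where the median of all genes was -1.71. Without Scram+IgG mouse 1 the values were 1.49 for Cd68 and 2.15 for Itgam.

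A ratio within a lane needs no lane scaling, so the markers were also expressed per 1000 CD3 complex counts, after the mean of the negative control probes had been subtracted from each count. Such a ratio sets a gene's own value in 1 mouse against its value in another, and is no ratio of transcripts, since probes differ in efficiency. Cd14 stood at 80.4, 247 and 419 per 1000 CD3 counts in Scram+IgG mice 1 to 3, 124, 512 and 210.1 with ANT008+IgG, 232, 172 and 636 in Scram+aPD-1 mice, and 520 (519.7), 290 (289.8) and 381 with ANT008+aPD-1. The ANT008+aPD-1 mice lay within the range of the other groups. Cd68 stood at 305, 410.3 and 811 in Scram+IgG mice, 381, 864 and 223 with ANT008+IgG, 752, 472 and 866 in Scram+aPD-1 mice, and 205, 296 and 342 with ANT008+aPD-1. Itgam stood at 101, 114 and 242 in Scram+IgG mice, 199, 192 and 146 with ANT008+IgG, 249.97, 209.8 and 266 in Scram+aPD-1 mice, and 70.2, 181 and 93.7 with ANT008+aPD-1.

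On this scale the ANT008+aPD-1 mice were all below the Scram+aPD-1 mice for Cd68 and Itgam, 2 of the 6 genes. The same held for 56.9% of all tested genes, so that it is not a result about these markers. The largest Cd14 and Cd68 values fell in Scram+aPD-1 mouse 3 and the lowest Cd14 value in Scram+IgG mouse 1, the lane with the highest CD3 share.

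**Figure D2:**
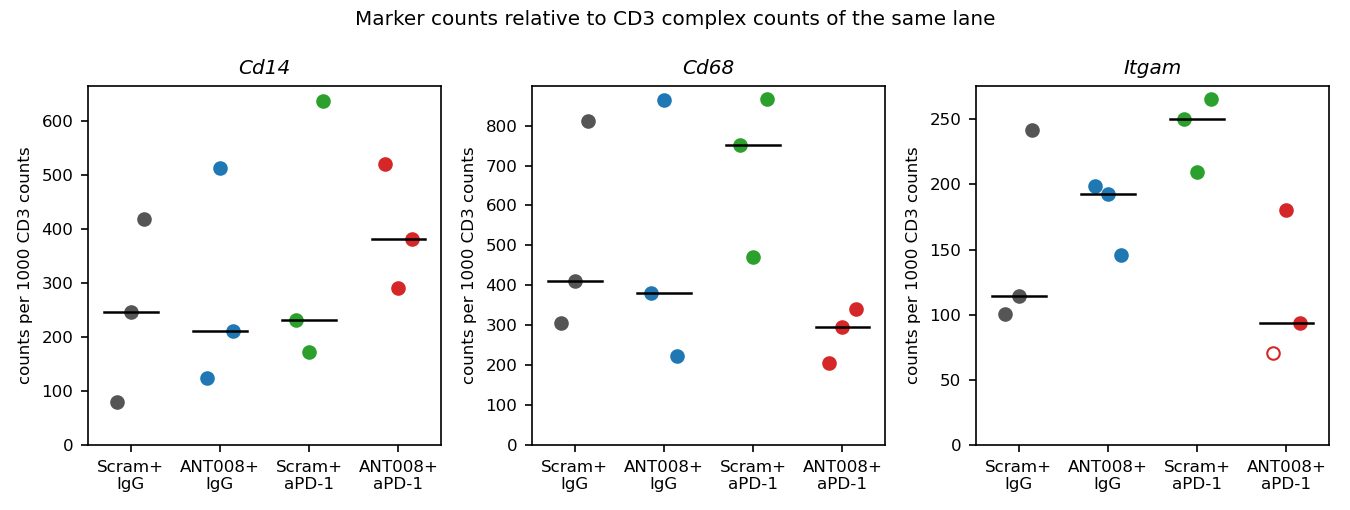
Background-subtracted counts of Cd14, Cd68 and Itgam per 1000 CD3 complex counts of the same lane, by group; each point is 1 mouse, bars are group medians, and the open point is a count not above background. The ANT008+aPD-1 mice lie within the range of the other groups for Cd14 and below all Scram+aPD-1 mice for Cd68 and Itgam.

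Cd14 and Cd68 parted in the ANT008+aPD-1 lanes. Cd14 made up 66.7%, 49.5% and 52.5% of the Cd14 and Cd68 counts in ANT008+aPD-1 mice 1 to 3 (exact 95% binomial intervals 50.5 to 80.4%, 46.9 to 52.1% and 43.9 to 60.9%). The share was 21.0%, 38.3% and 34.2% in Scram+IgG mice 1 to 3 (20.0 to 22.0%, 32.5 to 44.4% and 32.4 to 36.0%). It was 24.7%, 37.6% and 48.6% with ANT008+IgG (23.6 to 25.8%, 33.6 to 41.7% and 41.0 to 56.2%), and 23.6%, 26.9% and 42.7% with Scram+aPD-1 (22.7 to 24.6%, 24.8 to 29.0% and 37.0 to 48.5%). Every ANT008+aPD-1 mouse was thus above the other 9, though the interval of ANT008+IgG mouse 3 reached into those of all 3. The interval of Scram+aPD-1 mouse 3 reached into those of ANT008+aPD-1 mice 2 and 3. That of Scram+IgG mouse 2 reached into that of ANT008+aPD-1 mouse 3. The group means were 31.2 ± 9.05% (SD, n = 3 mice) for Scram+IgG, 37.0 ± 12.0% for ANT008+IgG, 31.1 ± 10.2% for Scram+aPD-1 and 56.2 ± 9.17% for ANT008+aPD-1. This share was chosen after the data had been seen and was not tested.

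The share was also lowest in the deepest lanes. In the 5 deepest lanes it was between 21.0 and 34.2%, and in the other 7 between 37.6 and 66.7%. ANT008+aPD-1 mouse 2, with 268678 endogenous counts, had 49.5%, against 38.3% in Scram+IgG mouse 2 with 256703 and 37.6% in ANT008+IgG mouse 2 with 202511. The part of depth in the difference was not tested. Taken over the Cd68 count in the same way, 4 of 639 genes (0.626%) were higher in all 3 ANT008+aPD-1 lanes than in the other 9, and Cd14 was the 1 of the 5 other markers among them.

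**Figure D3:**
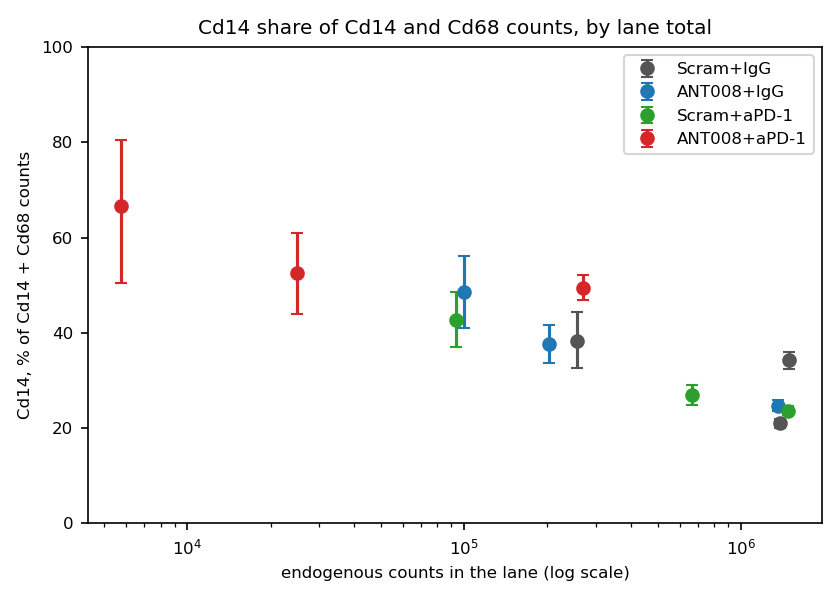
Cd14 as a percentage of the summed Cd14 and Cd68 counts of a lane, against the endogenous total of the lane (log scale); each point is 1 mouse and bars are exact 95% binomial intervals. The ANT008+aPD-1 mice, at 49.5 to 66.7%, are the highest of the 12, and the 5 deepest lanes, at 21.0 to 34.2%, are the lowest.

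The markers were also summed with other genes of the same cells, from lists that hold the markers themselves. The monocyte and macrophage list has 7 genes on the panel, 3 of which are Cd14, Cd68 and Itgam, and among the 7 Cd68, Cd84, Cybb and Ms4a4a had the largest counts. The 7 genes summed to 17627, 632 and 6586 counts in Scram+IgG mice 1 to 3, 16459, 1159 and 449 with ANT008+IgG, 19203, 4418 and 603 in Scram+aPD-1 mice, and 69, 3343 and 319 with ANT008+aPD-1. Per 1000 CD3 counts, after background subtraction, this was 1049, 1465 and 2900.1 with Scram+IgG, 1462, 2727 and 1089.9 with ANT008+IgG, 2306, 1575 and 2936 in Scram+aPD-1 mice, and 913, 1380.2 and 1546 with ANT008+aPD-1. Every ANT008+aPD-1 mouse lay below every Scram+aPD-1 mouse, as held for 56.9% of all tested genes taken singly. All other pairs of groups overlapped, and Scram+IgG mouse 3, ANT008+IgG mouse 2 and Scram+aPD-1 mouse 3 had the highest values. Of the 7 genes, 0 were called by edgeR in either direction in any tested comparison. The median log2 fold change of the list was 0.27 with ANT008+IgG, 0.64 with Scram+aPD-1 and 0.92 with ANT008+aPD-1, each against the same Scram+IgG mice, beside 0.11, 0.15 and 0.12 over all tested genes. In the last, Cd14 (2.36) and Itgam (1.15) lay above the list median, and Cd68 (0.56), Cd84 (0.42) and Cybb (0.52) below it. With CD3 scaling the list median of that comparison was -0.30, where the median of all genes was -1.71. Myeloid adaptor and pattern receptor genes, led by Itgb2, the partner chain of CD11b, had a median of 0.79 with ANT008+aPD-1. Of these genes 6 of 6 were above 0, beside 363 of all 640 tested genes, and 0 were called in the tested comparisons.

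Beside Fpr1 and Siglecf, the granulocyte list holds genes of mast cells, and those with its largest summed counts were Cpa3, Tpsb2, Csf3r and Fcer1a. Of its 10 genes on the panel 9 were tested, and Mpo, the myeloperoxidase of neutrophils, was above background in 0 of 12 lanes. Cpa3, a mast cell carboxypeptidase, was counted 772, 622 and 1523 times in Scram+IgG mice 1 to 3, 1368, 46 and 1594 times with ANT008+IgG, 1246, 2684 and 57 times with Scram+aPD-1, and 9, 445 and 11 times with ANT008+aPD-1. ANT008+IgG mouse 3 stood out, since its 1594 Cpa3 counts came from a total of 100293, against 46 from 202511 in mouse 2 of the group. The 10 genes of the list summed to 2754, 1376 and 3686 counts with Scram+IgG, 3536, 271 and 2974 with ANT008+IgG, 3507, 5602 and 209 in Scram+aPD-1 mice, and 43, 1180 and 90 with ANT008+aPD-1. Csf3r, the receptor for the granulocyte growth factor, was counted 812, 28 and 408 times with Scram+IgG and 5, 152 and 14 times with ANT008+aPD-1. The 5 counts were not above background, and with lane sizes the fitted log2 fold change of Csf3r between these groups was 0.99. In ANT008+aPD-1 mice 1 and 3, Fpr1, Siglecf, Cpa3 and Fcer1a were not above background, while Tpsb2 was above it in both. The median of the 9 tested genes was 1.27 with ANT008+IgG, 0.42 with Scram+aPD-1 and 0.99 with ANT008+aPD-1 against Scram+IgG. The last is the value of Csf3r. The medians of all tested genes were 0.11, 0.15 and 0.12, and 0 genes of the list were called in the tested comparisons. For ANT008+IgG the list median was -0.32 with positive control scaling and 0.51 with CD3 scaling, where the medians of all genes were -0.61 and -0.67.

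Defining genes of B cells and plasma cells were, like Ms4a1, near background. Of the 7 genes of that list on the panel, Blk and Pnoc were above background in 1 lane each and Tnfrsf17 in 0, and Spib, like Ms4a1, in 3. Btk, a kinase that myeloid cells and mast cells also express, was above background in 11 lanes and supplied most of the list's counts in the 5 deepest lanes. The list summed to 770 (640 of them Btk), 74 and 510 counts in Scram+IgG mice 1 to 3, 821, 61 and 56 with ANT008+IgG, 1028, 365 and 62 in Scram+aPD-1 mice, and 18, 193 and 31 with ANT008+aPD-1. Its 3 tested genes, Btk, Spib and Ms4a1, had a median of 2.90 in ANT008+aPD-1 over Scram+IgG mice, which is the value of Ms4a1, and 0.86 without the 2 shallowest lanes. None of the 3 was called by edgeR in a tested comparison.

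The lists of other cells had the following values between ANT008+aPD-1 and Scram+IgG mice. The 16 T cell genes had a median log2 fold change of 0.92, with 15 above 0, and the 11 NK and cytotoxic cell genes a median of 0.84, with 11 above 0. Over all tested genes the median was 0.12, with 363 of 640 above 0. The 3 dendritic cell genes (Hsd11b1, Flt3 and Cd209e) had a median of 1.501, which was 0.02 without the 2 shallowest lanes. The 4 fibroblast genes, led by Col6a3, had a median of 0.34, with 2 above 0, and -0.84 without those lanes. Egfr, the epithelial gene on the panel, stood at -0.02 and Flt1, the endothelial gene, at -1.35. In the tested comparisons edgeR called 0 genes of these lists. The medians of the monocyte, T cell and cytotoxic lists were 0.64, 0.15 and 0.10 with Scram+aPD-1 against Scram+IgG, and 0.23, 0.81 and 0.77 with ANT008+aPD-1 against Scram+aPD-1. In these comparisons the medians of all tested genes were 0.15 and -0.04. Differences between lists were not tested, and the part of T cell content or depth in the values of the 6 markers was not tested.

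The genes whose scaled counts were most like each marker over the 12 lanes were found by Pearson's r on log2(scaled count + 1), given as a description with r over the 10 lanes without ANT008+aPD-1 mice 1 and 3 beside it. For Cd14 they were Cd28 (0.96 and 0.95), Cmklr1 (0.95 and 0.94) and Mpc1 (0.94 and 0.89). For Cd68 they were Itgb2 (0.97 and 0.96), Fcgr4 (0.94 and 0.95) and Ptprc (0.92 and 0.94), and for Itgam Slc16a3 (0.93 and 0.95), Cybb (0.93 and 0.98) and Fcgr4 (0.92 and 0.92). Cd68 and Itgam thus shared Fcgr4, an Fc receptor of myeloid cells, while Cd28, nearest to Cd14, is a co-stimulatory receptor of T cells. Between the markers themselves, r was 0.86 for Cd68 and Itgam (0.87 over 10 lanes), 0.62 for Cd14 and Cd68 (0.71) and 0.67 for Cd14 and Itgam (0.70). Cd14 was nearer to Fpr1, at 0.85 (0.78), and over 12 lanes to Siglecf, at 0.83 (0.65), whose values are near background. All genes of a lane share its lane size, which sets the scaled value of a gene at background.

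The genes nearest to Fpr1, Siglecf and Ms4a1 were above background in 3 to 10 of the 12 lanes and in 0 or 1 of the ANT008+aPD-1 lanes. For Fpr1 the nearest genes were Cox7b (0.93 and 0.50), Myb (0.91 and 0.54) and Il10 (0.91 and 0.52), with a lower r in the 10 lanes. For Siglecf they were Il2 (0.98 and 0.93), Nos1 (0.97 and 0.88) and H2-Q2 (0.96 and 0.88). For Ms4a1 they were Eme1 (0.95 and 0.86), Ftcd (0.94 and 0.68) and Lepr (0.93 and 0.76). The r of Ms4a1 with Fpr1 was 0.82 over 12 lanes and -0.05 over 10.

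Each marker was counted by 1 probe pair against 100 bases of its transcript, and all 6 transcripts were matched to their symbols in the RefSeq annotation of GRCm38.p6. The targets of 5 markers are printed, since each gene was read through a single such window. They are given 5′ to 3′ in lower case, without marked bases, as the panel's definition gives them. The G and C content was 50% for Cd68, 52% for Itgam, 48% for Fpr1, 45% for Siglecf and 51% for Ms4a1.
Cd68: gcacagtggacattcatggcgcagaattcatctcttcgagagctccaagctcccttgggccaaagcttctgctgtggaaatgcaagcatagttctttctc
Itgam: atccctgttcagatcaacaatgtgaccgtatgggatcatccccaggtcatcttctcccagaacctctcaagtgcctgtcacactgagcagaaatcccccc
Fpr1: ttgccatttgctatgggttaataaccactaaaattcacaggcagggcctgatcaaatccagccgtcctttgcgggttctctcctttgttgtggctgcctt
Siglecf: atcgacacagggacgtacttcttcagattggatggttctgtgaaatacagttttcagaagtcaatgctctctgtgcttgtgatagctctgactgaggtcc
Ms4a1: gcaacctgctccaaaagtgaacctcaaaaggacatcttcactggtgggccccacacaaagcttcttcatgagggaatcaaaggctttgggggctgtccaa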

How the data were processed

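The authors deposited a table of whole-number counts, 1 per probe and lane, without background subtraction, scaling or pooling. They cover 748 endogenous and 20 housekeeping genes with 8 negative and 6 positive control probes in 12 lanes. Group and mouse number come from the titles. The test was edgeR 4.0.16 in R 4.3.3 (quasi-likelihood), on genes that exceeded background in 3 or more lanes, with housekeeping lane sizes as offsets and no covariates. It was tested on simulated data in which all genes had the same dispersion and only ANT008+aPD-1 lanes were changed. That run does not measure its power in these mice. Standard errors are the fold change over the root of F. Alternatives were scaling by TMM, total counts, positive controls or CD3 genes, other filters, background subtraction with a floor of 1 count, DESeq2 1.42.0, limma 3.58.1 on log2(scaled count + 1), voom with sample weights, the groups compared alone, the replicate number as a block, and mice or lanes left out. The 6 markers and the lists were chosen with earlier results of these data known. Besides the markers, up to 4 genes per list with the largest summed counts, any list gene called in a tested comparison, and the 3 genes most like each marker are named; others were added after their values were seen, as is the Cd14 share. Some panel genes are not reported here.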

Additional observations from a re-analysis of the deposited data

How the results depend on the processing

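Scaling by the positive control probes gave all 6 markers the opposite direction between ANT008+aPD-1 and Scram+IgG mice, so that 0 of 6 log2 fold changes were above 0. They were -2.83 for Cd14, -4.48 for Cd68, -3.61 for Itgam, -2.76 for Fpr1, -3.04 for Siglecf and -3.22 for Ms4a1. With the same scaling Cd14, Cd68 and Itgam stood at -2.48, -4.06 and -3.86 against ANT008+IgG, and Cd14 and Itgam at -2.59 and -3.46 against Scram+aPD-1. For Scram+aPD-1 against Scram+IgG the 3 values were -0.24, -0.24 and -0.15, and for ANT008+IgG those of Cd14 and Cd68 were -0.35 and -0.43. Scaling by CD3 genes reversed Cd68 with ANT008+IgG (-0.0467) and ANT008+aPD-1 (-0.65) against Scram+IgG and in ANT008+aPD-1 against ANT008+IgG (-0.60). It reversed Itgam in ANT008+aPD-1 against ANT008+IgG (-0.23) and Scram+aPD-1 (-0.63). Background subtraction reversed Itgam against Scram+aPD-1 (-0.10). Without the 2 shallowest lanes Ms4a1 reversed (-1.0045). These scalings move all genes together; the cause was not tested further.

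Voom called 3 markers with Scram+aPD-1 and 1 in ANT008+aPD-1 against ANT008+IgG, where DESeq2 also called 1. Its lane weights ran from 0.262 in ANT008+aPD-1 mouse 2 to 4.69 in Scram+IgG mouse 3. Of the 6 markers, 2 are above background in all lanes, so that filter left 2 with a value above 0. With each mouse left out, 0 to 1 marker was called against ANT008+IgG and 0 to 2 against Scram+aPD-1. Log2 fold changes then ran from -0.18 to 1.14 for Cd68 and from -0.0383 to 1.61 for Itgam with ANT008+IgG. For Cd68 they ran from -0.0434 to 0.66 in ANT008+aPD-1 against ANT008+IgG and from -0.54 to 0.19 against Scram+aPD-1. Log2 fold changes of a marker were set against alternatives other than leaving out 1 mouse. Of these, 207 kept their direction and their side of the threshold or, for ANT008+aPD-1 against Scram+IgG, moved by less than 1 SD, 23 reversed, 9 moved further and 5 passed the threshold. With 1 mouse left out, 100 stayed so, 6 reversed and 2 moved.

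With the replicate number as a block, 0 markers were called in the tested comparisons and 6 of 6 log2 fold changes stayed above 0 between ANT008+aPD-1 and Scram+IgG. The titles number the mice and state no pairing. Lanes with the same number had correlations from -0.64 to 0.78, and 3 of 12 lanes correlated best with their own number. With lane totals this unequal, such correlations cannot exclude a pairing. For the counts per 1000 CD3, 12 group medians under 2 alternatives each gave 3 of 24 values that moved by more than 1 SD, all with the 8 T cell list genes above background in all lanes as the denominator. The Cd14 share and the list medians were given alternatives after the data had been seen: subtracting background moved 0 of 4 group means of the share by more than 1 SD, and 42 of 180 values of list medians, counted over comparisons and alternatives, moved by more. Fpr1, Siglecf and Ms4a1 were at or near background in most lanes, and their fold changes in the ANT008+aPD-1 lanes are no measured levels.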
